A study of Mus musculus with 4 samples.

Results

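The heat shock chaperones of the cytosol and mitochondria were followed through glucose excess and pyruvate starvation in Schwann cells. The members were 10 genes, namely Hspa1a, Hspa1b, Hspa8, Hsph1, Hsp90aa1, Hspb1, Dnajb1, Dnaja1, Hspd1 and Hspe1, and were found by the gene name that the array design gives to each probe for a mouse transcript. They had 16 of the 39429 probes, and 9 of the 31093 gene names on the array. Of these 16 probes, 15 were well above background on all 4 arrays, and these 15 cover 9 genes. No probe carried the name Hspa1b, but the accessions listed for the Hspa1a probe include the transcripts of both Hspa1a and Hspa1b.

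The cells were IMS32, a Schwann cell line established from mouse, Schwann cells being the glia that ensheathe peripheral axons. All were kept for 1 h in medium that held glucose at 5 mM, with 1 mM pyruvate in the [Glc 5 mM/Pyr (+)] group or none in its counterpart [Glc 5 mM/Pyr (−)], or at 15 mM, with the same pyruvate in the [Glc 15 mM/Pyr (+)] group or none in its counterpart [Glc 15 mM/Pyr (−)]. Sets of 4 intensities below follow this order of the groups. Each group had 1 one-colour array, and the 4 arrays lay on 1 slide, so no difference has a replicate check and none is tested against the variation between cultures. No spot was saturated, and all 15 Schwann cell markers examined were well above background on the 4 arrays, among them Sox10 with an intensity of 4837 to 5667 and Ngfr with 14827 to 18042.

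Heat shock proteins hold or refold proteins that lose their structure. The cytosolic Hsp70 works in a cycle in which J proteins deliver substrates and start ATP hydrolysis, nucleotide exchange factors such as Hsp110 reset it, and Hsp90 completes the folding of selected clients. In mitochondria the chaperonin Hsp60 encloses proteins under the lid Hsp10. When unfolded proteins accumulate, heat shock factor 1 binds repeats of the motif nGAAn, the heat shock element, in the promoters of many of these genes, and the stress-inducible Hsp70 genes are the classic readout of this response.

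The sequences that identify the inducible Hsp70 signal are shown first, because the readings of Hspa1a depend on what its probe can bind. The probe of Hspa1a is listed at chr17:35094199-35094258 on the minus strand (mm9), and a probe of Hspa8, the constitutive Hsp70, can be laid against its end over 23 bases, of which 15 are identical and are set in capitals.
Hspa1a probe: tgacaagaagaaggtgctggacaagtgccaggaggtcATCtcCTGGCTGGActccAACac
Hspa8 probe: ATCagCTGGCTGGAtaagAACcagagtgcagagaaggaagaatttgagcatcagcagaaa
Hspa1a and Hspa1b encode near-identical proteins, and their signals were not separated by this probe. The signal is called Hspa1a below, after the name in the file, and is uncertain between these genes.

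The promoters of most members hold letters of the heat shock element. The promoter windows were taken from RefSeq (GRCm38.p6) and run from 250 bases before to 50 bases after the start of each gene. They were searched for the paired half-sites GAANNTTC and TTCNNGAA, each of which reads the same on both strands. The 150 bases before the start of Hspa1a, at chr17:34972157-34972306 on the minus strand, hold 1 such pair, in capitals.
Hspa1a promoter: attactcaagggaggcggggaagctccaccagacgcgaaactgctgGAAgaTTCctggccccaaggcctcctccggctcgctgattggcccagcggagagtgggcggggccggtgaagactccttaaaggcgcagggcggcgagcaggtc
The whole windows of Hspa1a and Hspa1b were identical at 296 of 300 bases, and the differences, with the Hspa1a base first and positions counted from 1 at the 5′ end of the window, were C44T, T47C, T249G and C276T. The pair lay at the same distance from the start in both genes, beginning 104 bases upstream.

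The same letters were found in other members, of which 30 bases each are shown with the paired half-sites in capitals, from chr17:34959324-34959353 (minus strand), chr5:149636351-149636380 (minus), chr5:135887791-135887820 (plus), chr4:40722333-40722362 (plus), chr1:55088053-55088082 (minus) and chr1:55088053-55088082 (plus) in turn.
Hspa1b: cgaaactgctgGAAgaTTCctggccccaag
Hsph1: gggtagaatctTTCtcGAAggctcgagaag
Hspb1: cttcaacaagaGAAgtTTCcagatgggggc
Dnaja1: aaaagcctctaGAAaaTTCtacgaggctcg
Hspd1: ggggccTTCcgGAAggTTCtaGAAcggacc
Hspe1: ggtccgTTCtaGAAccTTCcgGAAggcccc
The stretches of Hspd1 and Hspe1 are the 2 strands of the same 30 bases, since these genes start back to back, and they hold 3 overlapping pairs. A pair was found for 7 of the 8 members that matched a window (all but Hspa8 and Hsp90aa1), against 17.0% of 27025 genes with a window. These 7 are not independent, since Hspd1 and Hspe1 share bases and the windows of Hspa1a and Hspa1b are near-identical. Some genes have several windows, and by window a pair was found in 8 of 13 member windows, against 15.1% of 32851. The longer triples GAANNTTCNNGAA and TTCNNGAANNTTC, which each contain both pairs and are the reverse complement of each other, were found for Hspd1, Hspe1 and Hsph1, against 0.662% of genes. The 2 windows of Dnajb1 held no pair, nor did other windows of Dnaja1 and Hspd1. These are matches of letters and not measurements of binding.

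The inducible Hsp70 signal was highest in pyruvate-starved cells at 15 mM glucose. The intensity of the Hspa1a probe was 75.4 with and 81.3 without pyruvate at 5 mM glucose, and 63.5 with and 225 without pyruvate at 15 mM glucose. The first 3 groups lay close together and only the last stood apart. Values were then compared as log2 intensity relative to the 75th percentile of each array. On this scale the difference Pyr (−) minus Pyr (+) was 0.15 at 5 mM glucose and 1.80, or 3.47-fold, at 15 mM glucose. The scanner software's own error for this difference, for the spot alone, was 0.21 in both cases. For bright probes this spot error is a fixed share of the intensity, giving 0.20, and not a measured spread. The spread measured between repeated spots of a probe gives 0.10 for a difference, over probes of all levels. It covers error within an array only. The difference for glucose, 15 mM minus 5 mM, was -0.09 with pyruvate and 1.56, or 2.95-fold, without it. Both large differences rest on the same [Glc 15 mM/Pyr (−)] array. Levels are relative to the rest of the RNA on an array, so more RNA per cell and more cells with the RNA cannot be told apart.

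Hspa1a was the only member probe past a 2-fold difference, with 1 of 15 measured probes at 15 mM glucose without pyruvate against 0 of 15 at 5 mM glucose. Among all probes measured in both groups, 2.10% passed 2-fold in either direction when pyruvate was absent at 15 mM glucose, and 1.17% at 5 mM. For glucose the count was 1 of 15 without pyruvate, with 2.40% of all probes, and 0 of 15 with pyruvate, with 0.967% of all probes. By size, Hspa1a had the 43rd highest of 27784 differences for pyruvate at 15 mM glucose. When the probes were divided by signal into 3 equal groups, 2.29% of the dimmest group, to which Hspa1a belongs, were 2-fold higher in this comparison, against 0.326% of the middle and 0.0870% of the brightest group. Its value also depended on the background correction and was 1.15 with the normexp method, which adds an offset to every signal.

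The next largest difference was that of a J protein. Dnajb1, the main stress-inducible J protein partner of Hsp70, had an intensity of 24213 with and 23729 without pyruvate at 5 mM glucose, and of 22599 with and 36166 without pyruvate at 15 mM glucose. The levels of the first 3 groups spanned 0.06 on the log2 scale, within the spot error of 0.20, and the last was 0.65 above the next. Absence of pyruvate gave a difference of 0.01 at 5 mM and of 0.65, or 1.57-fold, at 15 mM glucose. This is a bright probe, and among 499 probes of similar level the central 95% of differences at 15 mM glucose ran from -0.31 to 0.24. At a 1.5-fold threshold, 2 of 15 member probes, Hspa1a and Dnajb1, were higher without pyruvate at 15 mM glucose, where 2.94% of all probes were. The same 2 probes were higher by 1.5-fold at 15 mM than at 5 mM glucose without pyruvate, where 2.74% of all probes were.

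**Figure D1:**
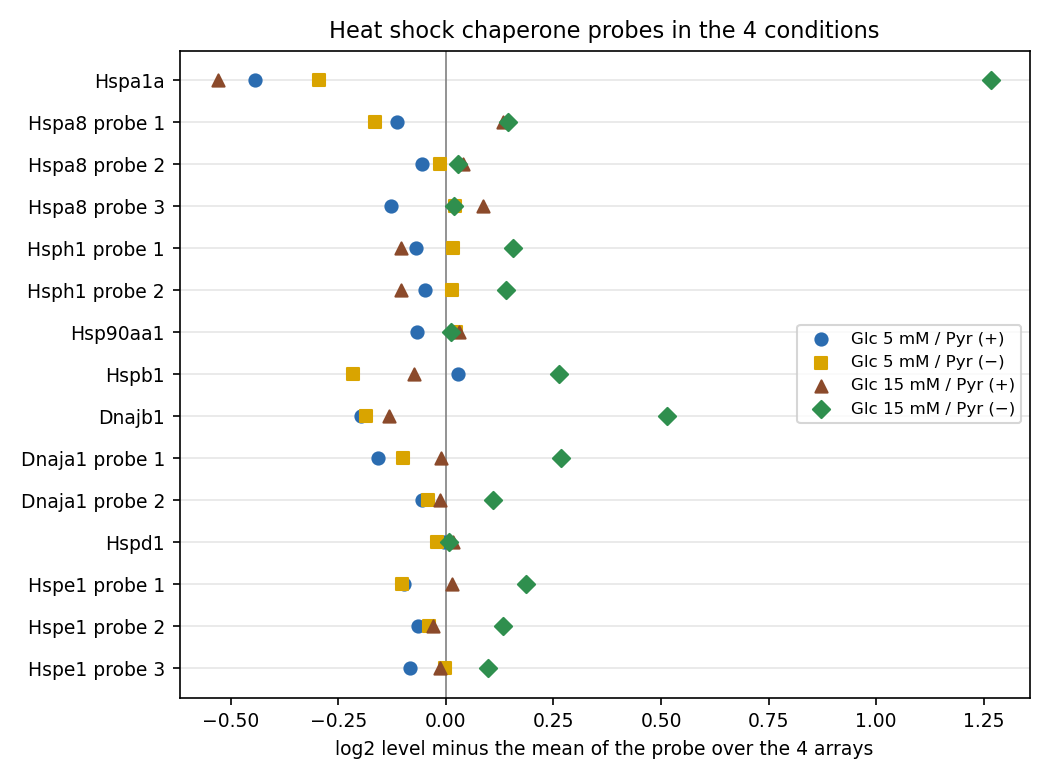
Log2 level of each of the 15 chaperone probes above background in the 4 groups, minus the mean of that probe over the 4 arrays. Each point is 1 array, and the [Glc 15 mM/Pyr (−)] array, drawn as diamonds, lies farthest right for 11 of the 15 probes, with the widest gaps for Hspa1a (1.56) and Dnajb1 (0.65).

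Dnaja1, a J protein that also serves mitochondrial import, had 2 probes whose scaled levels followed the order of Dnajb1, with smaller differences. The dim probe, listed at chr4:40681938-40681997 on the chromosome of the gene, read 124, 126, 123 and 152 in the 4 groups. The bright probe, listed on chromosome 1 although the gene lies on chromosome 4, read 46934, 46093, 43112 and 47993. The pyruvate difference at 15 mM glucose was 0.28 for the dim and 0.12 for the bright probe, and at 5 mM it was 0.06 and 0.01. Of these values only 0.28 exceeds the spot error of 0.21, and the 0.12 of the bright probe exceeds the measured spread of 0.10. Both values at 15 mM glucose lay within the central range, as given for Dnajb1, of probes of similar level. This range was -0.82 to 0.73 for the dim and -0.21 to 0.22 for the bright probe.

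Hsph1, the Hsp110 that exchanges the nucleotide of Hsp70, was read by 2 probes on chromosome 5. The first read 6336, 6536, 5525 and 6758 in the 4 groups, and the second read 16144, 16403, 13890 and 16783. Both probes were thus lowest with pyruvate and highest without it at 15 mM glucose. The pyruvate difference was 0.26 and 0.24 at 15 mM glucose, just above the spot error of 0.20, and 0.08 and 0.06 at 5 mM glucose. The values at 15 mM glucose lay within the central range, as given for Dnajb1, of probes of similar level. This range was -0.35 to 0.29 for the first probe and -0.30 to 0.28 for the second. The glucose difference without pyruvate was 0.14 and 0.13, below the spot error but above the measured spread of 0.10. For this comparison the median over all probes of similar level was 0.06 and 0.10.

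As the mean of its probes, the constitutive partner did not share this order. Hspa8, the Hsp70 of unstressed cells, had 3 probes, which read 31750, 29843, 33653 and 34680, then 104668, 104913, 99999 and 101242, then 108026, 116374, 111877 and 109065 in the 4 groups. Their pyruvate differences at 15 mM glucose were 0.01, -0.01 and -0.07, all below the spot error of 0.20. The first probe was thus highest in [Glc 15 mM/Pyr (−)], but by 0.01 only. The mean over the 3 probes was 0.19 for glucose with pyruvate. For glucose without pyruvate the probes differed, with 0.31, 0.04 and -0.001. Of these, 0.31 exceeds the spot error but lies within the central range of probes of similar level, which reached 0.35. All 3 probes are listed on chromosome 5, while the gene lies on chromosome 9. The probe printed beside that of Hspa1a was the one with -0.01.

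Hsp90aa1, the stress-inducible form of cytosolic Hsp90, was nearly level. Its probe on chromosome 12 read 102699, 106412, 98294 and 99105, and its pyruvate difference was 0.09 at 5 mM and -0.02 at 15 mM glucose. A second Hsp90aa1 probe had no listed position and was not well above background on any array, with intensities of 5.2, 7.4, 2.5 and 5.0, and was left out.

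Hspb1, a small heat shock protein that holds unfolded proteins and acts on actin filaments, read 48.6, 40.0, 40.5 and 52.2 in the 4 groups. It was lowest in [Glc 5 mM/Pyr (−)] and highest in [Glc 15 mM/Pyr (−)]. The pyruvate difference was -0.24 at 5 mM and 0.34 at 15 mM glucose, with a spot error of 0.22 for each. Both lay within the central range, as given for Dnajb1, of differences for probes of similar level. The change of direction was not tested. The probe is listed on chromosome 13 and the gene on chromosome 5.

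The mitochondrial chaperonin genes, which share a promoter, had pyruvate differences within the spot error. Hspd1, encoding Hsp60, read 93678, 90229, 85044 and 86262, and its 4 levels spanned only 0.04 after scaling. Its pyruvate difference was -0.01 at both glucose concentrations, and its only probe is listed on chromosome 12, while the gene lies on chromosome 1. Hspe1, encoding Hsp10, had 3 probes, which read 14849, 14395, 14321 and 16483, then 109544, 108453, 100150 and 114608, then 117277, 120798, 109934 and 121236. All 3 Hspe1 probes were highest in [Glc 15 mM/Pyr (−)], with pyruvate differences of 0.17, 0.16 and 0.11 at 15 mM glucose. Each was below the spot error of 0.20 but above the measured spread of 0.10. All lay within the central range, as given for Dnajb1, of probes of similar level. This range was -0.30 to 0.28 for the first probe and -0.21 to 0.19 for the others. For glucose without pyruvate they had 0.29, 0.17 and 0.10, of which 0.29 exceeds the spot error. These too lay within the central range of probes of similar level, which reached 0.33 for the first probe and 0.28 for the others. The median over all probes at these levels was 0.10 and 0.12. The Hspe1 probes are listed on chromosomes 1, 18 and 5 in turn, and the gene lies on chromosome 1. The first is listed at chr1:28995108-28995167 (mm9), while the promoter stretch of Hspe1 lies at chr1:55088053-55088082 (GRCm38.p6), with neither converted. For Dnajb1 the probe is listed at chr8:86135660-86135719 (mm9) and a promoter window at chr8:83607925-83608224 (GRCm38.p6), which lie much closer together. The listed position of this Hspe1 probe is therefore likely off the gene, although on its chromosome. Whether the probe binds the Hspe1 transcript was not tested.

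**Figure D2:**
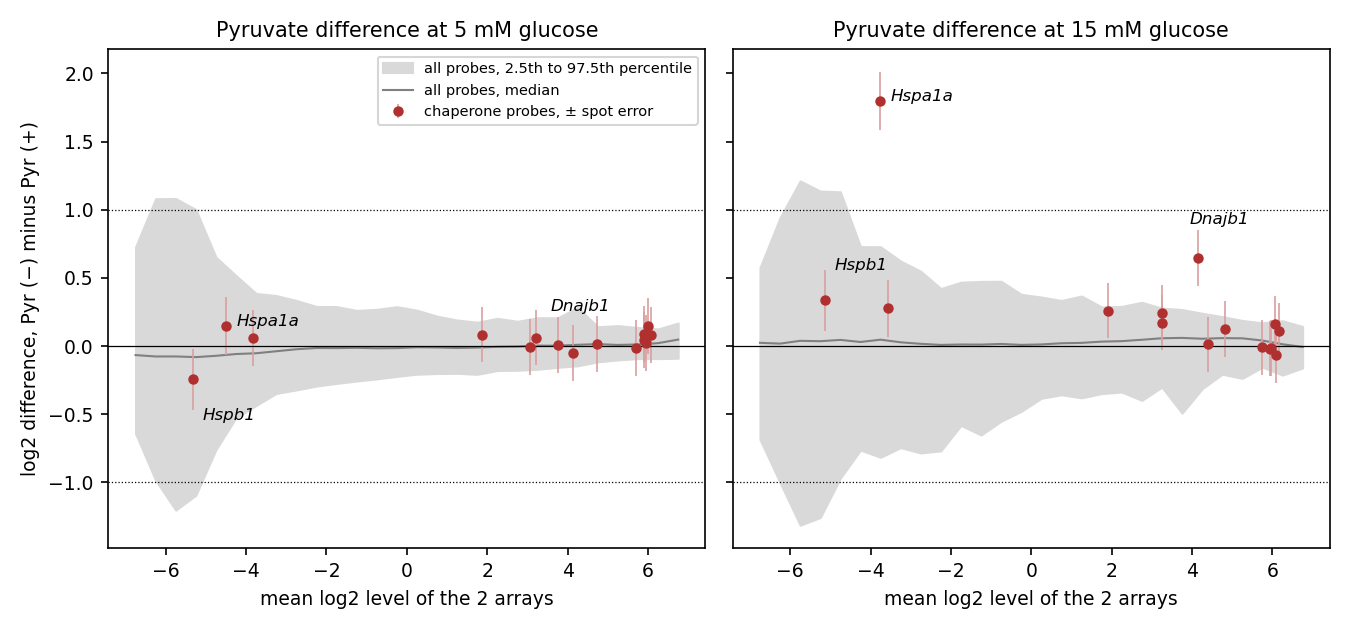
Pyruvate difference (log2, Pyr (−) minus Pyr (+)) against the mean log2 level of the 2 arrays, at 5 mM glucose (left) and 15 mM glucose (right). Red points are the 15 chaperone probes with the scanner software's spot error, the grey band holds the central 95% of all probes at that level, and dotted lines mark 2-fold. At 15 mM glucose Hspa1a (1.80) and Dnajb1 (0.65) lie above the band.

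Across the members, the highest level was in [Glc 15 mM/Pyr (−)] for 6 of 9 genes and 11 of 15 probes, against 38.0% of the 27590 probes above background on all 4 arrays. The other 3 genes, Hsp90aa1, Hspa8 and Hspd1, had their highest level in [Glc 15 mM/Pyr (+)], but the next level was within 0.02 for each. The median gene difference for pyruvate was 0.04 at 5 mM and 0.20 at 15 mM glucose, and the median over all genes was -0.02 and 0.03. For glucose the median was 0.06 with and 0.19 without pyruvate, and -0.02 and 0.03 over all genes. The glucose differences depended on the level of a probe, and 12 of the 15 member probes belong to the brightest of the 3 signal groups. Their median was 0.07 for glucose with and 0.13 without pyruvate, against 0.04 and 0.08 over the 9197 probes of that group, and over all probes at log2 levels from 4 to 6.5 the median of each bin was 0.08 to 0.11 and 0.12 to 0.14. For pyruvate the median of these 12 probes was 0.03 at 5 mM and 0.12 at 15 mM glucose, against 0.00 and 0.03 over the group. Of the 12, 9 were higher without pyruvate at 5 mM and 8 at 15 mM glucose, against 50.3% and 59.7% of the group. Without pyruvate, 11 of 15 member probes were higher at 5 mM glucose, where 44.5% of all probes were, and likewise 11 of 15 at 15 mM glucose, where 55.9% of all probes were. These directions are relative to the bulk of probes at 5 mM glucose, since scaling to the spike-in probes moved the median of all probes there to -0.19 and left 0 of 9 members higher, against 6 of 9 at 15 mM glucose, the same count as with the 75th percentile. The pyruvate difference at 15 mM minus that at 5 mM glucose was 1.65 for Hspa1a, 0.64 for Dnajb1 and 0.58 for Hspb1, then 0.18 for Hsph1, 0.16 for Dnaja1, 0.12 for Hspe1, 0.00 for Hspd1, -0.07 for Hspa8 and -0.11 for Hsp90aa1. Of the 15 member probes with a listed position, 8 are placed on another chromosome than their gene. This count goes by chromosome only, so it leaves out the Hspe1 probe placed on the chromosome of its gene but far from it. Probes of Dnaja1 and Hspe1 are placed on more than 1 chromosome. Whether any of these probes also binds related sequences was not tested.

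A fit of all 4 arrays with additive terms for pyruvate and glucose (limma) called 0 of 31278 probes (0.00%) for either term. At an unadjusted p under 0.05 it had 1078 probes for pyruvate and 1497 for glucose, none of them a member. The smallest adjusted p of a member by limma was 0.985 for pyruvate and 0.772 for glucose, both for Hspa1a, whose pyruvate term was 0.97 ± 0.52 (SE). The fit has 1 residual degree of freedom and treats a pyruvate effect that differs between the glucose concentrations as noise, and in simulated data with the noise between these arrays it found 0 of 200 changed probes.

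Beyond the members, 107 chaperone and quality control genes in 10 groups were examined. Of these, 104 were measured in the arrays compared at 15 mM glucose, and none passed 2-fold or 1.5-fold for pyruvate. Their differences ran from -0.56 to 0.56, with 72 higher, 32 lower and a median of 0.05. Of the 6 regulators measured, 3 were higher and 3 lower, with a median of 0.01. Hsf1, the factor that drives the response, read 6283, 5933, 5150 and 5370 in the 4 groups, a pyruvate difference of 0.03 at 15 mM glucose. Hsf5 had the largest difference of this group, -0.56, at intensities of 37.5 to 58.7.

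Exchange cochaperones and other small heat shock proteins were mostly slightly higher, while other J proteins had a median near that of all genes. The nucleotide exchange and ubiquitin cochaperones were higher without pyruvate at 15 mM glucose for 11 of 12 genes, with a median of 0.11, led by Bag4 at 0.18. Bag3, a target of heat shock factor 1 that links Hsp70 to autophagy, had 0.11. Among other J proteins 11 of 17 were higher, led by Dnajb4 at 0.33, and the median was 0.04. Other small heat shock proteins were higher for 7 of 7 genes, with a median of 0.15 and Hspb9 at 0.24, while Hspb8 had 0.15 and the lens and muscle chaperone Cryab 0.06. Over all genes measured, 56.9% were higher in this comparison, and 59.7% of the probes in the brightest signal group were. The median over all probes was 0.05 to 0.06 in each bin of log2 level from 2.5 to 5.5, near the smaller group medians.

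Of the other groups, other Hsp70 and Hsp110 genes had 4 of 9 higher and a median of -0.08, with Hspa12a lowest at -0.56. Hsp90 genes and cochaperones had 7 of 13 higher and a median of 0.03, with Ahsa2, related to the activator of the Hsp90 ATPase, at 0.41 and Hsp90ab1, the constitutive Hsp90, at -0.07. The chaperonin and prefoldin subunits that fold actin and tubulin had 11 of 14 higher and a median of 0.04, with Pfdn4 at 0.23. Mitochondrial proteases and import genes had 4 of 10 higher, a median of -0.02 and Tomm20 at 0.12, and the mitochondrial Hsp70, Hspa9, had -0.08.

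The chaperones of the endoplasmic reticulum, which answer to a different stress pathway, had 12 of 14 genes higher and a median of 0.06. Dnajb9, a J protein of this compartment, had the highest difference of the 104 genes, 0.56, and its mean intensity over 2 probes was 1753, 1620, 1582 and 2378 in the 4 groups. Hspa5, the Hsp70 of this compartment, had 0.17. For glucose without pyruvate, Dnajb9 had 0.57, and 14 of 14 chaperonin and prefoldin genes and 12 of 12 exchange and ubiquitin cochaperones were higher, with medians of 0.12 and 0.13. For this difference 56.2% of all genes were higher, but it grew with the level of a probe, and its median over all probes was 0.09 to 0.14 in each bin of log2 level from 2.5 to 6. As the mean over a gene's probes, only Hsf2bp passed 2-fold in these groups, with 1.19 for glucose with pyruvate, from an intensity of 27.1 to 55.2. By probe, 1 of the 2 probes of Dnaja4, a J protein, also passed, with an intensity of 216 with and 90.0 without pyruvate at 5 mM glucose, a difference of -1.22, and of 94.7 with pyruvate at 15 mM glucose, -1.03 from 5 mM. The other Dnaja4 probe had -0.02 and 0.05, so the gene's means were -0.62 and -0.49. The names Hsf1, Bag3, Hspb8, Cryab, Hsp90ab1, Hspa9 and Hspa5 were chosen after their values were seen.

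**Figure D3:**
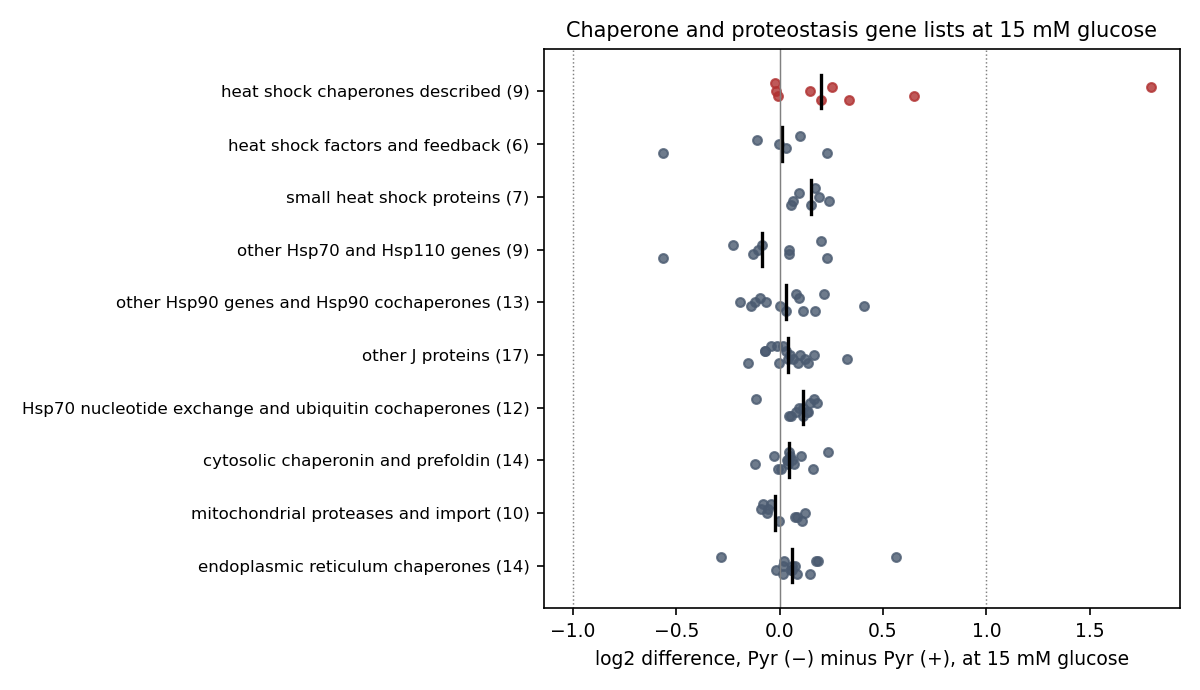
Pyruvate difference at 15 mM glucose (log2, Pyr (−) minus Pyr (+)) of the genes in the members and in 9 other chaperone groups, with the number measured in brackets. Each point is 1 gene as the mean of its measured probes, black bars are medians and dotted lines mark 2-fold. Hspa1a, at 1.80, is the only gene beyond the lines, and the median is 0.20 for the heat shock chaperones described and between -0.08 and 0.15 for the other groups.

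The genes whose pattern over the 4 arrays was nearest to that of Hspa1a were sought among 20335 genes with every probe above background, by Euclidean distance of levels centred on each gene's mean. The nearest was Dusp1, an immediate-early phosphatase of MAP kinases, at a distance of 0.08, with intensities of 528, 529, 420 and 1533 in the 4 groups and a pyruvate difference of 1.84 at 15 mM glucose. The next were a probe named only by an Ensembl transcript (0.10), B130024M06Rik (0.14), 5730407M17Rik (0.15) and Il17f (0.15). These distances describe 4 points per gene.

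**Figure D4:**
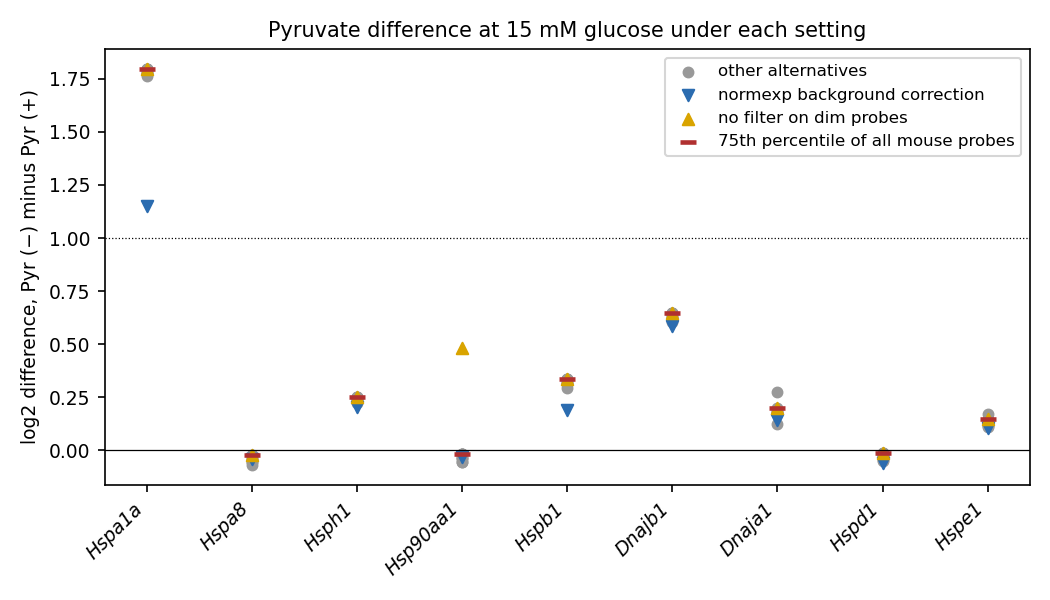
Pyruvate difference at 15 mM glucose (log2, Pyr (−) minus Pyr (+)) of each member under the main scaling (red bars) and under each alternative (other marks), with 2-fold as a dotted line. Hspa1a stays above the line in every setting, at 1.15 to 1.80, and Dnajb1 lies between 0.59 and 0.65, while Hsp90aa1 reaches 0.48 only when the probe below background is taken in.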

How the data were processed

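RNA of 1 sample per condition was hybridized to 1 Agilent one-colour mouse array (Cy3). The deposited scanner output of Feature Extraction 11.5.1.1, per the labels and file headers, holds background-corrected spot intensity, not scaled between arrays. The authors also deposited a ratio, which matched this intensity divided by a constant of each array within 1e-04 for all features. Control spots and flagged outliers were dropped, and repeated spots of a probe were averaged. From each log2 intensity the 75th percentile of the mouse probes on its array (1788, 1740, 1597 and 1632) was subtracted on the log2 scale. A probe entered a comparison where it was well above background in both groups, and probes of a gene were averaged. The median SD between spots of the same probe was 0.07 to 0.08 (log2), and 0.14 to 0.19 under an intensity of 200. This covers error within an array only.

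With 1 array per group, differences were described with a 2-fold threshold and no test. The additive fit used limma 3.58.1 (R 4.3.3) with Benjamini-Hochberg adjustment at 0.05, and other steps Python 3.11.15. It was tested on simulated data. At a noise of 0.05 log2 it recovered 200 of 200 changed probes, with 8 false calls. Members and gene lists were chosen with earlier results of these data known. Named genes are the members, genes of the lists past 2-fold, from each list the gene farthest from 0 for pyruvate at 15 mM glucose, and the 5 nearest profiles. The last rule was written for Hspa1b and was applied to Hspa1a, whose probe is annotated to both. Promoters came from RefSeq (GRCm38.p6), where 8 of the 10 members matched, and probe positions are those of the array (mm9), with none converted. Alternatives were other scalings (75th percentile over detected probes, quantile, cyclic loess, spike-in), the deposited ratio, background correction by normexp (offset 50), other filters on dim probes, other choices of probe, a 1.5-fold threshold and an intensity trend. Leaving out member probes listed on another chromosome than the gene was added after seeing the data. Counts include a few genes whose own values are not reported here.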

Additional observations from a re-analysis of the deposited data

Results flagged for a closer look

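Hspb1 differed in opposite directions with pyruvate at the 2 glucose concentrations, but not beyond the spread of probes of its level. The pyruvate difference was -0.24 at 5 mM and 0.34 at 15 mM glucose, which differ by 0.58 on the log2 scale. This rests on 1 array per group and the difference was not tested. With normexp background correction the values were -0.01 at 5 mM and 0.19 at 15 mM glucose. The values -0.24 and 0.34 lay within the central range, as given for Dnajb1, of probes of similar level. This range was -1.09 to 1.00 at 5 mM (1573 probes) and -1.26 to 1.14 at 15 mM glucose (1556 probes). The intensity of the probe was 40.0 to 52.2, and the median SD between spots of the same probe under an intensity of 200 was 0.14 to 0.19.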

How the results depend on the processing

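Hspa1a stayed past 2-fold under every alternative run, at 1.02 to 1.59 for glucose without pyruvate and 1.15 to 1.80 for pyruvate at 15 mM glucose, with normexp lowest in both. No 2-fold difference of a member reversed. Of 376 member differences recalculated, 319 moved by less than the spread between spots and 57 by more. A change of sign occurred in 36, none above 0.19 in size with the 75th percentile, and they reached up to 0.48 after it (Hsp90aa1, no filter on dim probes). The median member difference for glucose without pyruvate, 0.19, was 0.080 with cyclic loess, 0.081 with normexp, 0.031 with spike-in scaling and 0.33 without probes listed on another chromosome, which leaves 6 of the 9 members. Hspe1 is kept among these 6 by its probe on the chromosome of the gene, at 0.29, although that probe is listed far from the gene. With spike-in scaling the median was -0.24 for glucose with pyruvate and -0.13 for pyruvate at 5 mM glucose, but this scaling moved the median of all probes to -0.32 and -0.19, and 431 in place of 273 probes passed 2-fold for glucose with pyruvate. In the order pyruvate at 5 mM, pyruvate at 15 mM, glucose with and glucose without pyruvate, the count of probes past 2-fold was 340, 583, 273 and 676. It was 8, 98, 6 and 109 with normexp, 1652, 2546, 1624 and 2757 with no filter on dim probes, and 931, 1817, 880 and 2054 at 1.5-fold, where 2 members in place of 1 passed for glucose without pyruvate and for pyruvate at 15 mM. The limma fit called 0 probes under every alternative in which it was refitted. No paired analysis was possible because each group has 1 array, and for the same reason no replicate could be left out. Precision is limited by the number of arrays, and dim probes such as those of Hspa1a and Hspb1 have the larger spot error.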

Other observations

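Markers of other cell types were examined as counts. Of 6 macrophage markers 6 were well above background on all 4 arrays, of 6 fibroblast markers 5, of 4 endothelial markers 2 and of 5 neuron markers 3. Cdh5, which defines endothelium, and Syt1, a synaptic vesicle protein, were above background on no array. Cd68, a lysosomal protein abundant in macrophages, had a pyruvate difference of 0.88 at 15 mM glucose. The summed intensity of the macrophage markers was 15870 with and 14569 without pyruvate at 5 mM glucose, and 10854 with and 11170 without pyruvate at 15 mM glucose. Most of this sum came from the Itgam probe, with 13155, 11908, 8530 and 7997 in the same order, which Cd68 and Csf1r did not follow. Ptprc and the brightest probe of Adgre1 were dim, at 23.4 to 29.6 and 29.9 to 38.3. Whether macrophages were present was not tested, nor was any link of these markers to the chaperone values.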
